A study of Mus musculus with 4 samples.

Results

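The regions described here are stretches of mouse chromosomes 1 to 19 at least 5 kb wide that carried the histone mark H3K27me3 in fetal liver progenitors and held no base of a bone marrow peak. To find them, the peaks of both cell types were joined wherever they lay at most 3 kb apart. Of the 22283 joined regions, 21820 were on these autosomes and 5178 of those reached 5 kb. At any width, 10049 of the 21820 (46.1%) held fetal liver peaks alone. In this set of 5178, 417 regions (8.05%) had no base in a bone marrow peak and were taken as the wide fetal-liver-only regions. They were chosen by 2 measured values, their width and the absence of bone marrow peaks, so neither is a finding about them. Only 1 further region met both conditions on the X chromosome, which the rule leaves out.

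H3K27me3 is the trimethylated form of lysine 27 on histone H3. It is written by Polycomb repressive complex 2 and spreads over silenced genes, often the transcription factors that direct development. The complex tends to start at CpG-rich sites and extends the mark outwards, so that Polycomb targets can appear as domains of many kilobases with ragged edges. In blood progenitors the mark helps to keep genes of other lineages and stages silent.

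The study measured this mark by native chromatin immunoprecipitation, in which chromatin is cut by micrococcal nuclease without crosslinking, followed by sequencing. The bone marrow group was lineage-negative cells (without surface markers of mature blood cells) from C57BL/6 adults aged 8 weeks, and the fetal liver group was lineage-negative cells of C57BL/6 embryos at day 14.5. Both groups carried a lentivirus with NOTCH1ΔE (N1dE), an activated form of the NOTCH1 receptor, and were sorted for GFP after 3 days of culture, so neither is untransduced tissue. The 4 samples are an immunoprecipitation and an input of each group, and each immunoprecipitation came with 1 list of broad peaks called on merged libraries against input. No replicate spread can be had from 1 list per group, so no test between the groups was made. The read depth is unknown, and intervals below are 95% intervals that cover counting error over regions or peaks only. Regions that lie together are not separate observations, and the true error is larger than these intervals show.

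No gene is named on these regions and no sequence is printed. The peaks are on mm9, and the gene and promoter tables at hand are on GRCm38, another build. Positions below are mm9, counted from 1.

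The wide fetal-liver-only regions were mostly strings of short peaks, not unbroken domains. Together they spanned 3114.7 kb, of which 1695.1 kb lay in fetal liver peaks. The median region was 6.74 kb wide (interval 6.44 to 6.97 kb, n = 417), with quartiles of 5.72 and 8.06 kb and a range of 5015 to 26976 bp. Only 46 regions (11.03%, Wilson interval 8.37 to 14.4%) reached 10 kb and 12 reached 15 kb. Among shared regions of at least 5 kb, those with a peak base of each cell type, 2112 of 4725 (44.7%, 43.3 to 46.1%) reached 10 kb. Shared regions are joined from the peaks of both lists, and width is part of the rule, so this difference is not a finding. A single peak made up 9 regions, 2 peaks made up 123, 3 peaks made up 200, and 4 to 8 peaks made up the other 85. The widest peak inside a region had a median of 2.03 kb and took a median of 27.7% of the region's width. Just 26 of the 417 (6.24%, 4.29 to 8.98%) held any one peak of 5 kb or more, so the others passed the width limit through joining. Among the shared regions of at least 5 kb, 2111 of 4725 (44.7%) held a fetal liver peak that wide. The contrast was also present below 10 kb, where 17 of 371 fetal-liver-only regions (4.58%, 2.88 to 7.22%) and 711 of 2613 shared regions (27.2%, 25.5 to 28.9%) held such a peak. The classes were set by contact with bone marrow peaks, which a wider peak can meet more easily. This contrast is therefore not a finding either.

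Fetal liver peaks filled a median of 52.9% of a wide region (interval 50.7 to 54.4%, n = 417), with quartiles of 41.5 and 64.6%. The fill ran from 16.4% to 100%. It was at least 75% in 48 regions and under 25% in 7. Regions of 2 peaks had a median fill of 66.9%, those of 3 peaks 46.7% and those of 4 or more 46.6%. The rule bounds these values, since a single peak fills its region and each further peak adds a gap of up to 3 kb. The fill ran from 41.7 to 89.5% with 2 peaks and from 16.4 to 80.5% with 3 peaks. Fill hardly moved with width up to 10 kb. The median was 52.3% in the 276 regions from 5 to under 7.5 kb, 52.3% in the 95 from 7.5 to under 10 kb and 59.4% in the 46 of 10 kb or more. Shared regions of the same 3 width classes were filled by fetal liver peaks to medians of 65.9%, 66.0% and 69.3%, and by bone marrow peaks to 47.1%, 47.7% and 49.6%. In each width class the fetal-liver-only regions were the less filled by fetal liver peaks. Bone marrow peaks set which regions were shared and helped to join them, so this order is a description only. The gaps between peaks within a region had a median of 1.66 kb, and the shortest of the 816 was 802 bp. In the whole autosomal list of either cell type no gap was under 801 bp, so closer marked stretches appear as 1 peak in these lists.

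**Figure D1:**
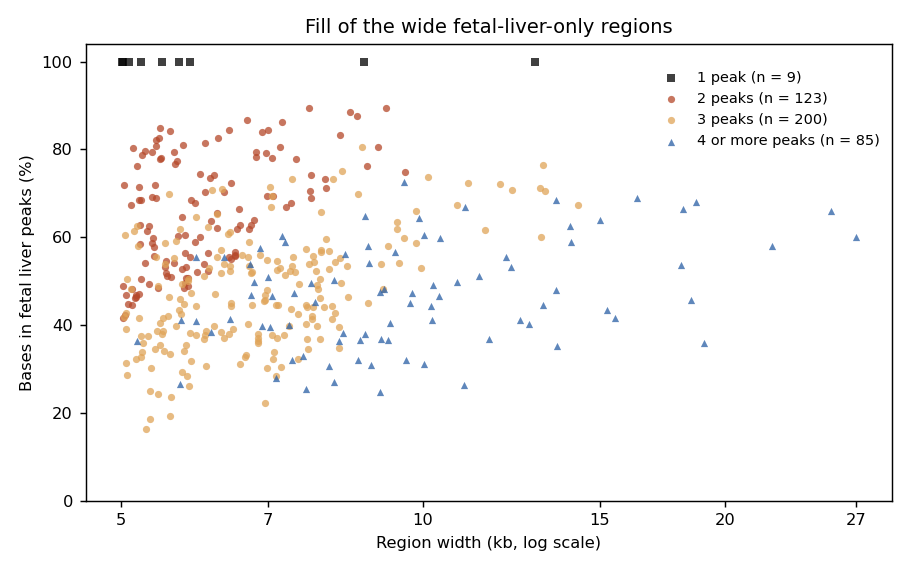
Fill of each wide fetal-liver-only region (y axis, percent of its bases in fetal liver peaks) against its width (x axis, kb, log scale), with 1 point per region and colour and shape for the number of peaks. The 9 single-peak regions sit at 100%, the quartiles of all 417 are 41.5 and 64.6%, and the 10 widest regions are made of 5 to 8 peaks.

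The peaks inside the wide regions were of ordinary height for the fetal liver list. The 417 regions held 1233 peaks with a median width of 974 bp, against 665 bp for the 10904 peaks in fetal-liver-only regions under 5 kb and 1384 bp for the 19398 peaks in shared regions. Fold enrichment over input, the authors' value per peak, had a median of 1.92 (interval 1.89 to 1.94) in the wide regions, 1.92 (1.91 to 1.93) in the short ones and 1.93 (1.93 to 1.94) in the shared ones. The median −log10 q was 1.05, 1.055 and 1.12 in the same order. By −log10 p within the autosomal fetal liver list, the peaks of the wide regions had a median percentile of 48.2. Peaks of 2 to under 5 kb had median folds of 1.92, 1.89 and 1.94 in the 3 classes. A −log10 q of at least 2 was reached by 187 of the 1233 peaks (15.2%, 13.3 to 17.3%), by 17.1% of the peaks of short regions and by 14.3% of those of shared regions. Counted by region, 121 of the 417 (29.0%, 24.9 to 33.5%) had at least 1 such peak and 88 (21.1%) had none with a −log10 q of 1 or more. In regions under 5 kb, which hold fewer peaks each, 18.2% had such a peak.

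The 10 widest regions lay on 8 chromosomes and were 15.5 to 26.98 kb wide, with 5 to 8 peaks each. They were filled to between 35.9 and 69.0%. The highest fold among the peaks of each ran from 1.81 to 3.17, and 5 of the 10 held a peak at or above 2 in −log10 q. The widest, at chr17:34536953-34563928, had 7 peaks of 1.73, 0.38, 4.01, 2.101, 0.33, 2.19 and 5.46 kb from left to right. Their folds were 1.80, 2.12, 2.09, 1.93, 2.45, 1.80 and 1.79, so the shortest peak had the highest fold and the widest peak the lowest. At chr4:129752608-129778071 the 6 peaks were 6.55, 2.31, 1.56, 3.77, 0.36 and 2.25 kb wide, with folds of 1.95, 1.82, 1.55, 1.55, 1.18 and 1.80. The outer peaks of this region were higher than the 3 before the last, and no peak in it reached a −log10 q of 1.2. The 8-peak region at chr2:93755497-93774561 was the least filled of the 10, with 1 peak of 3.56 kb and 7 of 0.86 kb or less. Its highest folds, 2.79 and 2.40, belonged to peaks of 0.39 and 0.85 kb. The region at chr8:97034016-97050366 was the most filled of the 10 and held the highest fold, in 5 peaks of 2.12, 0.30, 1.68, 6.00 and 1.17 kb with folds of 1.83, 1.68, 2.31, 2.54 and 3.17.

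Of these 10, 8 had a shared region as the next joined region on at least 1 side, though this neighbour was often not close by. The gap to it was 3.75 kb on chromosome 2, 34.3 kb on chromosome 4 and 146.2 kb on chromosome 11. For the regions on chromosome 17 that start at 26435809 and 34536953 it was 93.6 and 32.2 kb. For the region on chromosome 15 that starts at 85489867 it was 42.4 kb. Some of these regions had a nearer shared region on the other side, past fetal-liver-only regions. It lay 26.1 kb away on chromosome 4, 24.3 kb on chromosome 11 and 29.2 kb from the chromosome 15 region that starts at 85489867. The region at chr15:101633239-101651734 was flanked on both sides, by a shared region of 5.17 kb at a gap of 9.12 kb and by one of 44.0 kb at a gap of 9.86 kb. Fetal liver peaks covered 5.17 and 29.2 kb of these neighbours, and bone marrow peaks 3.12 and 14.8 kb. The chr13:55969798-55992074 region ended 10.1 kb before a shared region of 27.4 kb, with 18.5 kb in fetal liver and 7.21 kb in bone marrow peaks. On its left a nearer shared region lay 6.37 kb away, past a fetal-liver-only region. The other two, on chromosomes 6 and 8, had fetal-liver-only regions next to them on both sides.

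**Figure D2:**
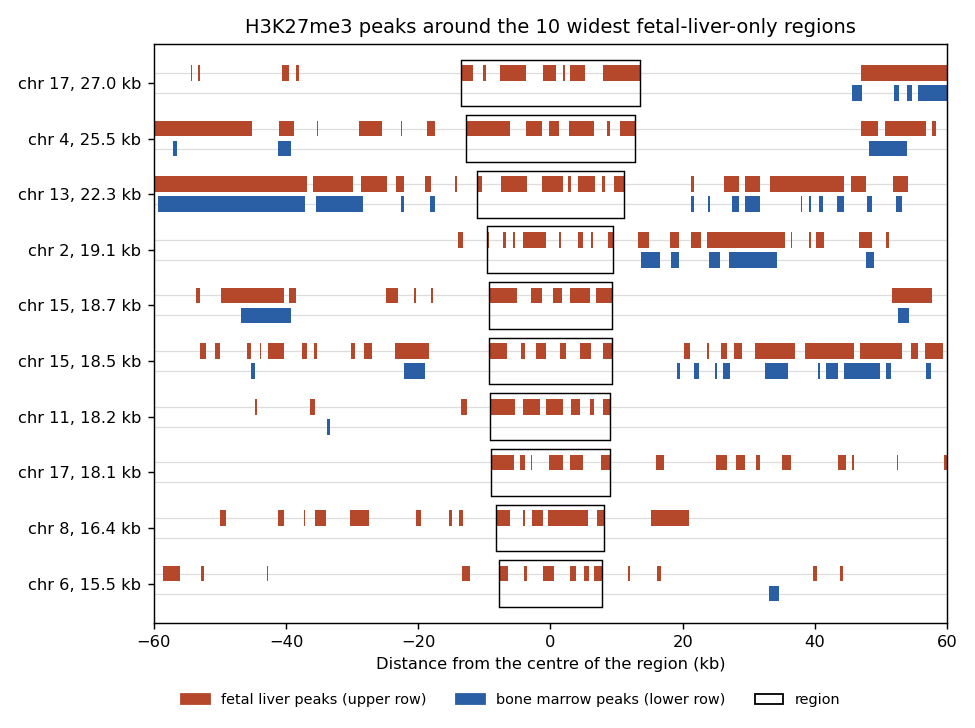
H3K27me3 peaks within 60 kb of the centre of each of the 10 widest fetal-liver-only regions (x axis, distance in kb), with fetal liver peaks in the upper and bone marrow peaks in the lower row of each pair and a box around the region. Each box holds 5 to 8 separate fetal liver peaks and no bone marrow peak, and the regions on chromosomes 13, 2 and 15 (18.5 kb) have bone marrow peaks within 10 kb of the box.

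The 5 regions with the widest single peak lay on 4 chromosomes. The widest unbroken peak was itself a region, chr17:26543877-26556809, of 12.9 kb with a fold of 1.91 and a −log10 q of 1.07, at 202.2 kb from bone marrow peaks. Another single peak, chr19:5748993-5757716, was 8.72 kb wide with a fold of 1.98, and a bone marrow peak lay 7.27 kb from it. At chr1:92804914-92817978 a peak of 7.90 kb with a fold of 2.53 stood beside peaks of 1.01 and 0.41 kb with folds of 2.07 and 2.66, and no bone marrow peak was within 164.6 kb. The region at chr17:32615771-32630051 held a peak of 7.67 kb (fold 2.06), and that at chr2:25502923-25515185 one of 6.65 kb (fold 2.23). The last of these lay between shared regions 5.50 kb to the left and 4.57 kb to the right.

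The regions with the highest peaks were of middling width, inside the quartiles of all 417 (5.72 and 8.06 kb). Among all 417, the 5 with the highest fold in any peak were 5.93 to 7.498 kb wide, on 5 chromosomes, and all 5 had fetal-liver-only regions on both sides. At chr6:94033160-94040509, 4 peaks of 0.85, 0.60, 0.77 and 0.72 kb had folds of 4.96, 2.32, 2.99 and 1.75. At chr2:60542883-60548809, 2 peaks of 2.11 and 1.92 kb had folds of 4.43 and 2.97 and a −log10 q of 6.25 and 3.51, and bone marrow peaks lay 244.3 kb or more away. In the other three, at chr7:70979357-70986854, chr5:34376691-34384080 and chr14:27893966-27900820, the highest folds were 4.07, 4.05 and 4.0. The peaks that held them were 1325, 1049 and 305 bp wide.

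Every autosome held wide fetal-liver-only regions, from 5 on chromosome 12 to 47 on chromosome 2. Chromosomes 2 and 11 together held 85 of the 417. Per 100 Mb of chromosome there were 16.9 such regions over all autosomes, with the most on chromosome 11 (31.2), chromosome 17 (28.3) and chromosome 2 (25.9) and the fewest on chromosome 12 (4.12) and chromosome 3 (5.01). These densities follow in part the number of joined regions on each chromosome. As a share of the joined regions of 5 kb or more, the wide fetal-liver-only regions were 8.05% over all autosomes and ran from 2.67% on chromosome 12 (5 of 187, 1.15 to 6.11%) to 12.4% on chromosome 17 (27 of 218, 8.65 to 17.4%). Chromosome 16 followed at 10.9%, chromosome 8 at 10.5% and chromosome 1 at 10.2%. Chromosome 3 was the next lowest at 4.08% (8 of 196, 2.08 to 7.85%). The intervals of 16 of the 19 autosomes held 8.05%; that of chromosome 17 lay above it, and those of chromosomes 3 and 12 lay below it. With 19 chromosomes compared, some intervals miss the common value through counting error alone.

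**Figure D3:**
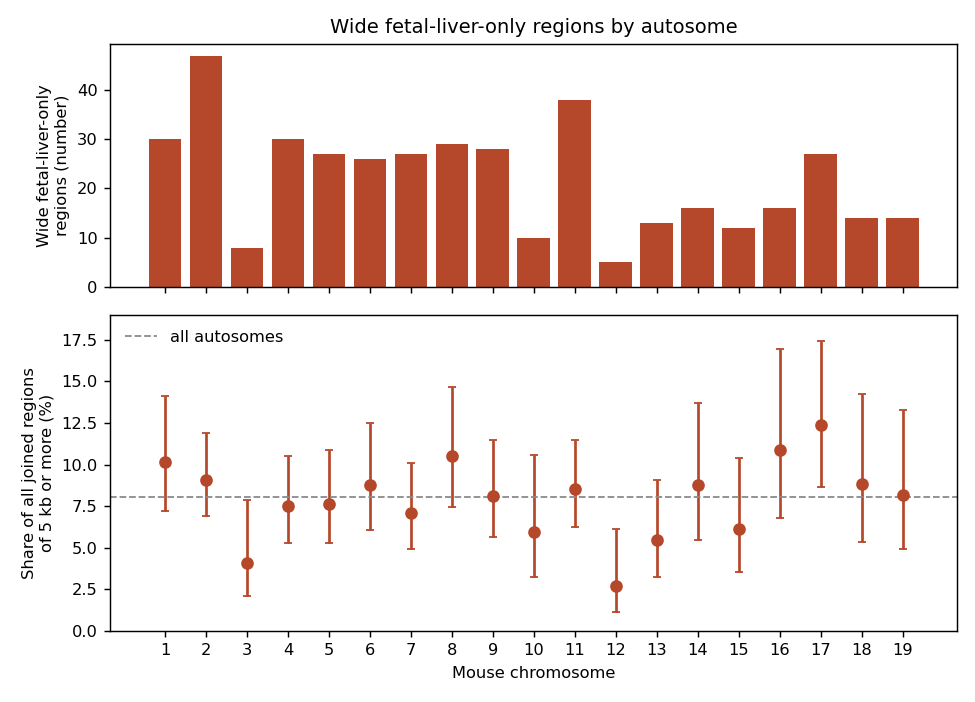
Number of wide fetal-liver-only regions on each autosome (upper panel, bars) and their share of all joined regions of 5 kb or more (lower panel, points with 95% Wilson intervals), with the share over all autosomes, 8.05%, as a dashed line. Chromosome 2 has the most regions (47) and chromosome 17 the largest share (12.4%).

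The opposite class, bone-marrow-only regions of at least 5 kb, numbered 36 of the 5178 (0.695%), and on each of the 19 autosomes it was the smaller. Their median width was 6.85 kb and their median fill by bone marrow peaks 57.4% (interval 49.1 to 69.8%, n = 36). A peak of 5 kb or more was held by 6 of the 36 (16.7%, 7.87 to 31.9%). This excess of fetal liver regions belongs to the lists as given, 31847 peaks for fetal liver and 20024 for bone marrow. When only the top 20024 fetal liver peaks by −log10 p were kept, with the bone marrow list whole, the order turned around. Then 195 wide regions were free of bone marrow peaks and 368 were free of fetal liver peaks. This cut removed the weaker peaks of 1 list only, so it does not separate list length from peak strength. Keeping in each list the peaks with a −log10 q from 2 upwards gave 231 and 497. This cut left 4844 fetal liver and 5313 bone marrow peaks, so the bone marrow list was then the longer. The part of list length, peak strength or depth in the excess was not tested.

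Bone marrow peaks were seldom far away. The nearest one lay a median of 17.1 kb from the region (interval 14.6 to 20.5 kb), with quartiles of 7.26 and 39.9 kb, and joining at 3 kb fixes a minimum just above 3 kb. It was within 10 kb of 142 regions (34.1%, 29.7 to 38.7%), within 25 kb of 255 (61.2%) and within 100 kb of 379 (90.9%). Farther than 500 kb there were 3. Fetal-liver-only regions under 5 kb lay farther out, at a median of 22.8 kb (22.2 to 23.9 kb, n = 9632), and 26.7% (25.8 to 27.6%) of them had a bone marrow peak within 10 kb. The nearest bone marrow peak was usually short, with a median width of 805 bp (interval 711 to 927 bp), against 966 bp (951 to 983 bp) for the autosomal bone marrow list. It belonged to a shared region in 349 of 417 cases (83.7%, 79.8 to 86.9%), close to the 85.1% of all autosomal bone marrow peaks that do.

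The 5 closest regions had a bone marrow peak 3.08 to 3.22 kb away, just past the joining distance, and all 5 had a shared region next to them. At chr18:38296782-38301816 shared regions stood 3.76 kb to the left and 3.08 kb to the right. At chr7:4937951-4947169 the closest bone marrow peak was 0.20 kb wide and made a bone-marrow-only region. The 5 most remote regions lay on chromosomes 1, 2 and 14, with the closest bone marrow peak 465.1 to 1280.0 kb away, and all 5 had fetal-liver-only regions as neighbours on both sides. Both groups were picked by this distance, so the class of their neighbours mostly follows from the choice. The most remote was chr1:79851211-79856669, 5.46 kb wide, with 2 peaks and a fill of 82.7%. At chr2:108424156-108430934, 1083.0 kb from a bone marrow peak, 4 peaks reached a fold of 3.18 and a −log10 q of 3.34.

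A shared region was the next joined region on at least 1 side of 225 wide fetal-liver-only regions (54.0%, 49.2 to 58.7%) and on both sides of 58 (13.9%, 10.9 to 17.6%). These shares were not above those of the fetal-liver-only regions under 5 kb, 59.2% (58.2 to 60.2%) and 15.5% (14.8 to 16.3%). Wide shared regions had another shared region next to them on at least 1 side more often, in 70.6% (69.3 to 71.9%). An adjoining shared region lay within 10 kb of 144 wide fetal-liver-only regions (34.5%, 30.1 to 39.2%) and of 25.01% (24.2 to 25.9%) of the short ones, and within 25 kb of 186 (44.6%, 39.9 to 49.4%) and 37.5% (36.5 to 38.5%). Among wide shared regions these shares were 39.2% (37.8 to 40.6%) and 51.3% (49.9 to 52.7%), and within 10 kb the interval overlapped that of the wide fetal-liver-only regions. Fetal-liver-only regions stood on both sides of 159 wide regions (38.1%, 33.6 to 42.9%), against 29.8% (28.9 to 30.7%) of short ones. A bone-marrow-only region stood beside 55 (13.2%, 10.3 to 16.8%), against 18.1% (17.3 to 18.8%).

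Shared regions that flanked a wide fetal-liver-only region were less filled by bone marrow peaks than shared regions at large. Their fill by fetal liver peaks was about the same only with all widths pooled. Within 25 kb there were 223 such flanking regions, and in 193 of them (86.5%, 81.4 to 90.4%) fetal liver peaks covered more bases than bone marrow peaks. Over all 9136 autosomal shared regions the share was 69.5% (68.5 to 70.4%), and over the 3582 beside a fetal-liver-only region under 5 kb it was 76.1% (74.7 to 77.4%). The median ratio of fetal liver to bone marrow bases was 1.95 (quartiles 1.22 and 3.33) in the flanking regions and 1.32 (0.912 and 2.15) in all shared regions. Fetal liver peaks covered at least 2 times as many bases as bone marrow peaks in 107 of the 223 (48.0%) and in 27.6% of all shared regions. The flanking regions had a median fetal liver fill of 67.8%, next to 67.2% in all shared regions, whereas the median bone marrow fill was 33.9% against 49.3%. The flanking regions were also wider, with a median of 7029 bp against 5188.5 bp. Within each width class the median bone marrow fill of the flanking regions was also the lower. Their median fetal liver fill was 57.9% under 5 kb, against 66.1% in all shared regions of that width. It was 72.3% against 65.9% from 5 to under 10 kb, and 68.9% against 69.3% at 10 kb or more. The order of the share with more fetal liver bases held within width classes. From 5 to under 10 kb, 68 of 75 flanking regions (90.7%, 82.0 to 95.4%) had more fetal liver bases, against 72.0% (70.2 to 73.7%) of all. At 10 kb or more it was 72 of 76 (94.7%, 87.2 to 97.9%) against 83.0% (81.3 to 84.5%), and under 5 kb 53 of 72 (73.6%, 62.4 to 82.4%) against 61.6% (60.1 to 63.0%), where the intervals overlap. No test was made between these overlapping sets of regions.

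At the edge of the shared region that faced the wide fetal-liver-only region, fetal liver peaks mostly reached farther out, as they did over all shared regions. Of 226 facing edges, the fetal liver peaks reached farther out than the bone marrow peaks at 165 (73.0%, 66.9 to 78.4%), and bone marrow peaks farther at 61. Over both edges of all shared regions the share was 62.9% (62.2 to 63.6%), and at edges facing a fetal-liver-only region under 5 kb it was 68.5% (67.1 to 69.9%), inside the interval of the 226. The share rose with width over all shared regions, and within width classes the intervals overlapped. It was 63.0% (51.5 to 73.2%) at the facing edges of regions under 5 kb, against 57.5% (56.4 to 58.5%) over all of that width. From 5 to under 10 kb it was 76% (65.2 to 84.2%) against 66.1% (64.8 to 67.4%), and at 10 kb or more 79.5% (69.2 to 87.0%) against 70.3% (68.9 to 71.7%). The median reach of fetal liver over bone marrow peaks was 724.5 bp at the facing edges and 291 bp over all edges.

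The widest flanking regions, and those of the most unequal cover, were picked after their values were seen. On chromosome 4 the wide region at chr4:129619998-129627373 lay 6470 bp before a shared region of 86.3 kb, chr4:129633844-129720137, in which fetal liver peaks covered 64.1 kb and bone marrow peaks 20.5 kb. In chr5:92652353-92696969, of 44.6 kb, the values were 34.2 and 12.2 kb, and in chr4:148151604-148205710 they were 35.2 and 18.3 kb. The widest flanking region, chr19:45291984-45381707, was nearly balanced, at 69.0 and 58.9 kb. At the other end, chr1:182947641-182957744 was shared through 1 bone marrow peak of 0.2 kb beside 5.02 kb of fetal liver peaks, so a short bone marrow peak kept it out of the fetal-liver-only class.

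**Figure D4:**
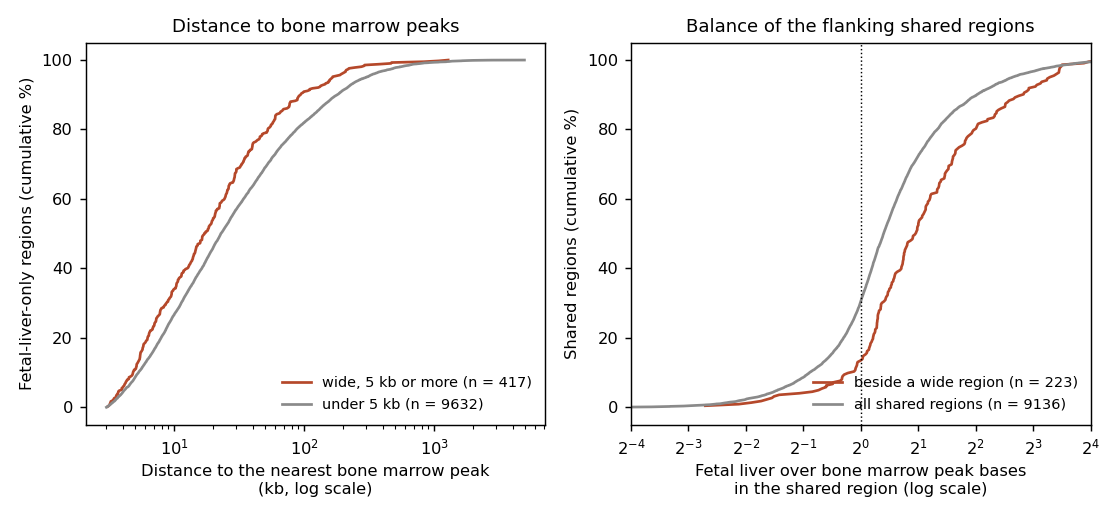
Left, cumulative share of fetal-liver-only regions (y axis, %) by distance to the nearest bone marrow peak (x axis, kb, log scale) for the 417 wide regions and the 9632 under 5 kb. Right, cumulative share of shared regions by their ratio of fetal liver to bone marrow peak bases (x axis, log scale) for the 223 beside a wide region and all 9136; the curve of the flanking regions lies to the right, with medians of 1.95 and 1.32.

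The surroundings of the wide regions also held more fetal liver than bone marrow peak bases. Within 50 kb on either side, outside the region itself, fetal liver peaks covered a mean of 12.6 kb and bone marrow peaks 5.43 kb, a ratio of sums of 2.33. Around shared regions of at least 5 kb the means were 10.7 and 6.46 kb, a ratio of 1.66, and around fetal-liver-only regions under 5 kb they were 7.88 and 4.12 kb, a ratio of 1.91. For the autosomal lists as a whole the ratio of covered length was 1.52. Fetal liver peaks covered more of the surroundings than bone marrow peaks at 384 of the 417 wide regions (92.1%, 89.1 to 94.3%), and at 74.5% (73.3 to 75.7%) of the wide shared regions. Surroundings with no bone marrow base at all were not more frequent, with 88 of the 417 (21.1%, 17.5 to 25.3%), against 22.6% (21.4 to 23.8%) of wide shared regions and 30.9% (30.0 to 31.9%) of the short fetal-liver-only ones.

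The wide fetal-liver-only regions occurred both alone and in groups. The nearest other such region was a median of 495.3 kb away, within 100 kb for 106 (25.4%, 21.5 to 29.8%) and within 1 Mb for 265 (63.5%, 58.8 to 68.0%). Linking regions at most 1 Mb apart gave 246 runs, of which 152 held 1 region, 55 held 2 and 39 held 3 or more. A wide shared region lay within 1 Mb of 408 of the 417 (97.8%, 95.9 to 98.9%), near the 96.1% (95.6 to 96.7%) of wide shared regions that had another one within that distance. Of the 31 pairs of neighbours within 25 kb of each other, 27 had no bone marrow base between them and 20 had no other region between them. Joining at 5 kb or more would merge several of these, such as chr2:6152882-6158121 and chr2:6161500-6169625, which lay 3378 bp apart.

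The longest runs held 8 regions each. The run on chromosome 17 spanned 1784.5 kb, from 25592930 to 27377447, and that on chromosome 9 spanned 3459.2 kb, from 120106182 to 123565361. In the chromosome 17 run, 112 fetal liver peaks covered 258.4 kb and 52 bone marrow peaks 116.4 kb, and in the chromosome 9 run 158 and 94 peaks covered 286.0 and 145.6 kb. The chromosome 8 run from 10394020 to 11388851 was the most unequal of the 7 runs with 5 or more regions. Its 75 fetal liver peaks covered 91.2 kb and its 9 bone marrow peaks 12.0 kb, a ratio of 7.58.

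Between consecutive bone marrow peaks, the 417 regions fell into 370 stretches free of that list, with a median length of 98.9 kb. Such a stretch held a median of 6 fetal liver peaks and 6.52 kb in them, and 36 stretches held 2 or more wide regions. The stretches named here were picked for their fetal liver bases after the values were seen. The stretch with the most fetal liver bases spanned 461.0 kb on chromosome 17, from 26341629 to 26802651. Its 30 fetal liver peaks covered 46.2 kb, or 10.0% of its length. Its 5 wide regions measured 18.1, 6.69, 12.9, 8.76 and 6.43 kb, and none of their peaks had a −log10 q of 1.5 or more. A stretch of 339.7 kb on chromosome 8, from 10718320 to 11058003, held 26 peaks over 34.6 kb, with 4 wide regions of 5488, 8255, 13174 and 7529 bp.

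The third stretch, 488.6 kb on chromosome 8 from 96727306 to 97215889, held 21 peaks over 33.8 kb. Its 4 wide regions, of 6.24, 7.27, 16.4 and 5.71 kb, had highest folds of 2.66, 2.42, 3.17 and 1.87 and stood within 118.3 kb of each other, 152811 to 217428 bp from any bone marrow peak. The stretch of 597.3 kb on chromosome 16, from 29211146 to 29808423, held 3 wide regions near its right end. These had highest folds of 3.42, 2.07 and 3.73, and a bone marrow peak lay 5.49 kb beyond the last of them. Peak height thus differed between these stretches, from folds of at most 2.26 on chromosome 17 to 3.73 on chromosome 16.

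**Figure D5:**
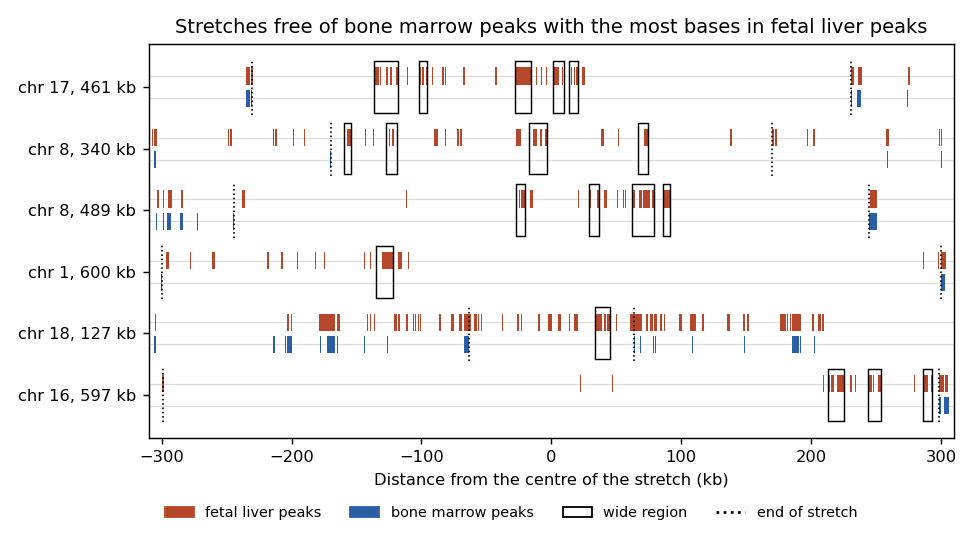
Fetal liver peaks (upper row) and bone marrow peaks (lower row) along the 6 stretches free of bone marrow peaks that hold the most bases in fetal liver peaks among those with a wide region, drawn from the centre of each (x axis, kb), with boxes around the wide regions and dotted lines at the ends of the stretch. Wide regions lie together on chromosomes 17, 8 and 16, and the stretches on chromosomes 1 and 18 hold 1 each.

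How firmly a region stayed in the class depended on joining. When all peaks were joined within 5 kb, 323 of the 417 (77.5%, 73.2 to 81.2%) remained free of bone marrow bases, within 10 kb 209 (50.1%, 45.3 to 54.9%), within 25 kb 98 (23.5%), within 50 kb 51 (12.2%) and within 100 kb 22 (5.28%). At the width limit, the 3 narrowest regions inside it were 5015, 5026 and 5026 bp wide, and the 3 widest fetal-liver-only regions outside it were 4993, 4991 and 4982 bp. Inside, 2 of the 3 were single peaks with a fill of 100% and the other was filled to 41.7%. Outside, each had 2 peaks and fills of 61.9, 67.5 and 43.0%. The highest folds were 2.37, 1.67 and 2.08 inside and 1.98, 1.99 and 1.98 outside.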

How the data were processed

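The submitters' processing notes name mm9, the aligner BWA 0.5.7, the peak caller MACS2 2.1.0 and Picard. The sources used here give neither the settings nor the read numbers. The deposited peak names say merged libraries against input. The deposited lists give, per peak, the authors' fold enrichment (a ratio of immunoprecipitation to input), −log10 p and −log10 q, and a score that was not used. They served only to describe, rank or filter peaks within a list. Deeper sequencing lets a caller find more peaks, so list length does not measure the mark.

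Peaks were joined at most 3 kb apart and classed by overlap from 1 bp in Python 3.11.15 with numpy 2.4.6 and pandas 2.3.3. Bedtools 2.31.1 gave the same 417 regions and distances. The code was tested on simulated data, and all 5700 planted regions were recovered. Shares have Wilson intervals (scipy 1.17.1) and medians exact binomial order-statistic intervals. Chromosome lengths came from GenomeInfoDb 1.38.1, and figures from matplotlib 3.10.9. Named regions were the 10 widest, the 5 with the largest fill, the 5 farthest from and closest to a bone marrow peak, the 5 of highest fold, the 5 with the widest peak, the largest run and the 3 on either side of the width limit. Since 9 regions tied at a fill of 100%, those are given as a group, and the shorter of 2 tied runs is the named one. Flanking shared regions, other runs, stretches and surroundings were chosen after the values were seen. The regions and comparisons were chosen with earlier results of these data known. The 2 inputs were the authors' background for calling and gave no values here.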

Additional observations from a re-analysis of the deposited data

How the results depend on the processing

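No paired analysis was possible because each cell type has a single list of peaks. As reported, there were 417 regions, a median fill of 52.9%, a median distance of 17.1 kb to a bone marrow peak, 54.0% beside a shared region and 63.5% within 1 Mb of another such region. Joining only touching peaks gave 47 regions, 100% fill, 6.88 kb and 17.0% within 1 Mb. Joining within 1 kb gave 84, 87.7%, 7.79 kb and 25%. Joining within 5 kb gave 731 regions, 35.9% fill, 22.2 kb, 61.3% beside a shared region and 72.5% within 1 Mb, and within 10 kb 879, 22.3%, 38.1 kb, 68.6% and 76.2%. A −log10 q of at least 2 in both lists gave 231, 82.2%, 49.4 kb, 21.2% and 45.02%, and only 27 of the 417 regions overlapped 1 of these 231. Keeping only as many fetal liver peaks as bone marrow has gave 195 regions, 55.6% fill and 46.7% within 1 Mb, and 184 of the 417 overlapped one. With the fetal liver list reduced until it covered as many bases as bone marrow, a setting added after seeing the data, the values were 169 regions, 55.6% fill, 48.5% beside a shared region and 44.97% within 1 Mb. Without peaks under 500 bp the fill was 60.1% and 59.0% lay beside a shared region. A width of at least 3 kb gave 1236 regions and 85.0% within 1 Mb, and one of at least 10 kb gave 46, 59.4%, 24.8 kb, 58.7% and 28.3%. Barring bone marrow peaks within 10 kb gave 275 regions, 29.3 kb and 34.9%, and allowing them 5% of a region gave 11.2 kb. Of 60 alternative values, 17 stayed within the reported interval or, for counts, within 1.5 times. The cause of these moves was not tested. Unknown read depth limits every count.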
